A study of Cicer arietinum with 5 samples.

Results

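Chickpea seeds of the cultivar Himchana 1 held 635 windows of 100 bp in which asymmetric DNA methylation was lower at mid-maturation (S5) than at late-embryogenesis (S3), in a genome where it was mostly higher at S5. These windows were 0.0947% of the 670696 windows measured. Over the 635 windows, asymmetric cytosines had a mean level of 42.8% ± 3.83 at S5 (SD over libraries, n = 3) and 67.9% ± 1.43 at S3 (SD, n = 2). CHG could be measured in 153 of these windows and was lower at S5 in 145 of them (94.8%), beside 69.4% of all windows with CHG measured. CG could be measured in 161 and differed by less than 5 percentage points in 105 (65.2%), beside 85.4% of all windows with CG measured. Neither class was measured in 396 of the 635 windows (62.4%), beside 24.3% of all windows.

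The level is the percent of bisulphite reads that show C at listed methylcytosines, since bisulphite changes unmethylated cytosine to uracil and leaves methylcytosine as it is. A cytosine was called asymmetric if no listed cytosine lay on the opposite strand 1 or 2 bases downstream in any library. A window was measured if 3 or more asymmetric cytosines were listed in all 5 libraries, with 30 or more reads per library. The windows described here, called falling windows below, had a mean S5 level lower than the mean S3 level by 20 percentage points or more, and the highest S5 library still lay below the lowest S3 library. The windows were thus chosen by their asymmetric levels in these libraries, so that their own difference is given as a description without a test.

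The study sequenced genomic DNA of Himchana 1, a small-seeded cultivar, from field-grown plants. S5 was represented by 3 libraries and S3 by 2, each made from pooled seeds. A change in level within cells and a change in the share of seed tissues cannot be told apart in such samples. Methylcytosines listed per library numbered 26012659 to 27777737 at S5 and 24562750 and 25784137 at S3, with a median coverage of 12 to 14 reads at S5 and 14 reads at S3. S5 replicate 2 was the shallowest library, at a mean coverage of 15.6 reads against 19.6 to 20.2 reads in the others.

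In plants, CG methylation is copied after replication by MET1, and CHG methylation is kept by the chromomethylase CMT3 in a loop with histone H3 lysine 9 methylation. Asymmetric CHH methylation has no partner on the other strand to be copied from. It is set anew by DRM2, which small RNAs guide in the RNA-directed DNA methylation pathway, and by CMT2 in condensed heterochromatin. Transposable elements are the main targets of these pathways. A gain of CHH methylation during seed maturation is known from other plants.

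The general direction was a rise. The asymmetric difference (S5 minus S3) had a median of 4.51 percentage points over all windows measured, and 79.1% of them were higher at S5. The mirror image of the rule, a rise of 20 percentage points or more with every S5 library above every S3 library, was met by 8665 windows (1.29%), or 13.6 for each falling window. The falling windows started from a high level. Their median S3 level was 68.1%, against 43.3% over all windows, and their median S5 level was 42.5%, against 48.6% over all windows. Few windows measured had a high S3 level: 7.42% of them were at 70% or more, whereas 42.2% of the falling windows were. Falling windows formed 0.665% of the windows with an S3 level of 70 to 80% and 0.629% of those at 80 to 90%, against 0.0259% of those at 40 to 50%. Since the rule needs a fall of 20 percentage points, windows that start low could not meet it easily. The median difference of all windows also varied with the S3 level. It was 2.20 percentage points in windows at 0 to 10%, 6.11 at 30 to 40% and 1.84 at 60 to 70%. At 70 to 80%, 80 to 90% and 90 to 100% it was 0.94, 0.01 and -0.90. The S3 level is itself part of the difference and no level can exceed 100%, so that part of this pattern may be set by the grouping.

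**Figure D1:**
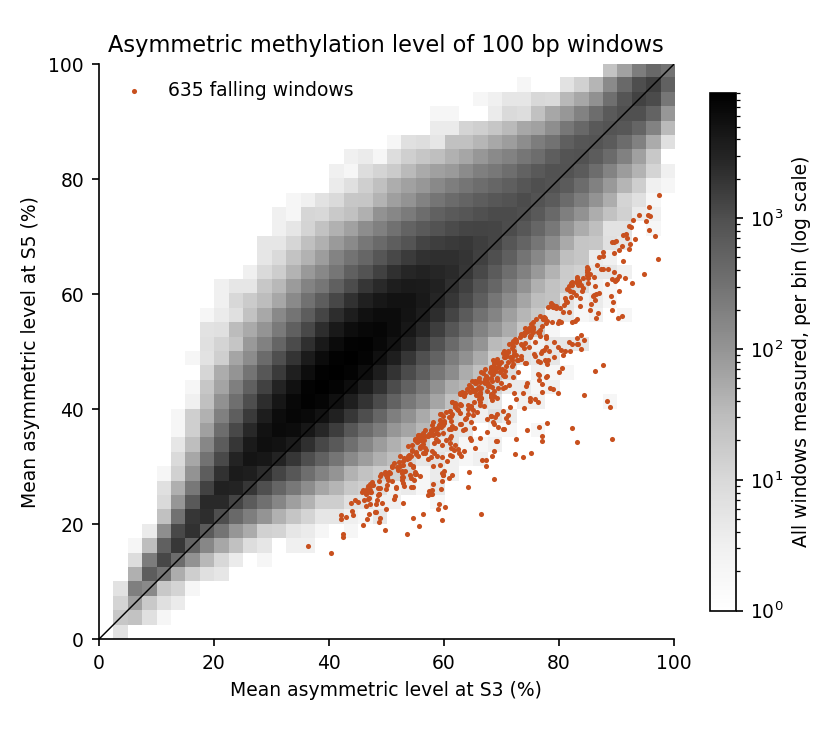
Mean asymmetric level at S5 (vertical axis, %, 3 libraries) against S3 (horizontal axis, %, 2 libraries) for all 670696 windows measured (grey, log scale of windows per bin) and the 635 falling windows (orange points). Most of the grey cloud lies above the diagonal line of equal levels, and the falling windows lie below it, at a median of 42.5% at S5 and 68.1% at S3.

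The rule set both the order of the libraries between the stages and a minimum difference of their mean levels. The levels per library are therefore given as a description. The median level of the falling windows was 42.8%, 36.4% and 45.8% in S5 replicates 1, 2 and 3, and 68.3% and 66.7% in S3 replicates 1 and 2. Over all windows measured the medians were 48.3%, 47.0% and 50% in the S5 libraries and 43.7% and 42.9% in the S3 libraries. S5 replicate 2 was the lowest S5 library in 365 of the 635 windows (57.5%). The gap between the lowest S3 and the highest S5 library had a median of 13.2 percentage points. It was 10 or more in 450 windows (70.9%) and under 5 in 62 windows.

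**Figure D2:**
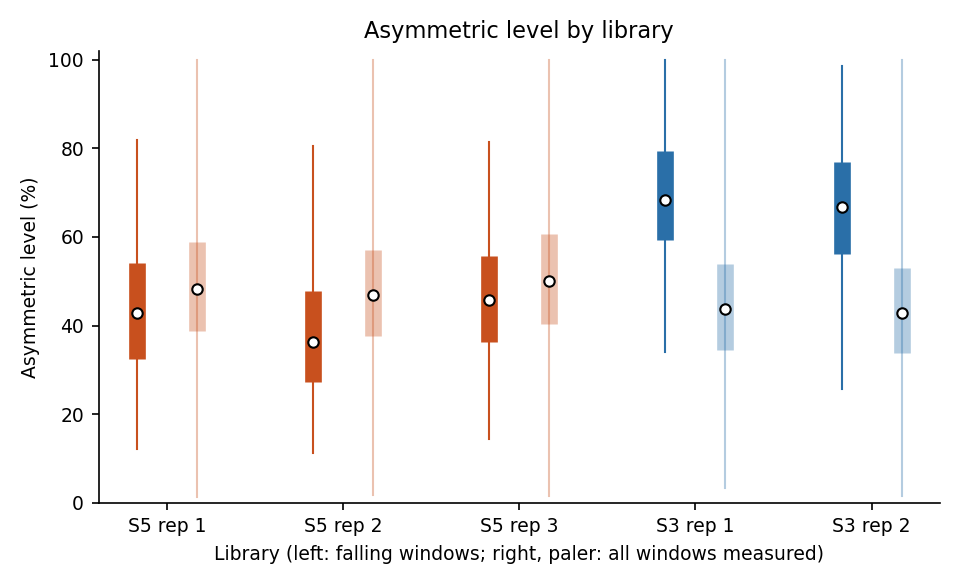
Asymmetric level (%) in the 3 S5 libraries (orange) and the 2 S3 libraries (blue), for the falling windows (left of each pair) and all windows measured (right, paler). Circles mark medians, thick bars the middle 50% and thin lines the full range; the falling windows have medians of 36.4 to 45.8% at S5 and of 66.7 and 68.3% at S3.

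The size of the fall lay near the limit in most windows. The median difference was -23.3 percentage points and the middle 50% of windows lay between -27.1 and -21.4. A difference of -25 or less was found in 236 windows, of -30 or less in 112 and of -40 or less in 14. The windows just inside the limit lay on Ca6 at 15396601 to 15396700, on Ca5 at 3927301 to 3927400 and on Ca7 at 29576701 to 29576800, with differences of -20.01, -20.01 and -20.004 percentage points. The windows just outside it, with libraries in the same order, lay on Ca3 at 6643301 to 6643400, on Ca4 at 41492101 to 41492200 and on Ca1 at 47840501 to 47840600, at -19.9997, -19.99 and -19.98. Coordinates follow the kabuli chickpea genome (v1) to which the authors aligned the reads. Another 1286 windows had libraries in this order and a difference between -20 and -15.

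Since the rule was set on the sum over a window, most of its cytosines had to be lower at S5, and their values are given as a description. The falling windows held 3632 asymmetric cytosines listed in all libraries, of which 3569 (98.3%) had a lower mean level at S5, against 30.4% of the 3642435 such cytosines of all windows. Every cytosine was lower at S5 in 576 windows (90.7%). The median difference per cytosine was -24.7 percentage points, and none was higher at S5 by 20 or more, a rise that 7.38% of the cytosines of all windows showed. Cytosines with an S3 level of 40 to 60% had a median S5 level of 30.6% against 52.2% at S3, and those with an S3 level of 80% or more had 58.3% at S5 against 87.9% at S3.

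The level in a library that took no part in the choice was examined by choosing windows on the other 4 libraries, among windows measured in all 5. Without S5 replicate 1, 875 windows were chosen, and their mean level in that replicate was 49.7%, against 67.0% in the S3 libraries. S5 replicate 2 had 44.9% in the 583 windows chosen without it, against 68.0% in the S3 libraries. S5 replicate 3 had 53.6% in the 1268 windows chosen without it, against 65.4% in the S3 libraries. The S3 levels in this comparison had themselves served to choose the windows for being high, so that part of each difference was set by the choice. The unused S5 library was below the S3 mean by 17.4, 23.1 and 11.8 percentage points, although over all windows it was above that mean by a median of 4.23, 3.18 and 5.72. It lay below both S3 libraries in 86.9%, 92.1% and 71.7% of the chosen windows, against 15.7%, 21.7% and 11.6% of all windows. The mean S3 level of all windows was 45.1%, so that these shares compare windows of unlike S3 level. The S3 libraries were left out in the same way. In the 1333 windows chosen without S3 replicate 1 the S5 mean was 45.0% and that replicate had 56.6%, and in the 1970 windows chosen without S3 replicate 2 the S5 mean was 45.4% and that replicate had 53.7%. These S3 levels were above the S5 mean by 11.6 and 8.25 percentage points, but the single S3 library used for the choice had 69.7% and 70.2%. A large part of the difference in windows chosen with 1 S3 library was therefore not found in the other S3 library. The unused S3 library lay above all S5 libraries in 60.3% and 51.3% of the chosen windows, against 10.8% and 8.69% of all windows. It was above the S5 mean in 82.4% and 74.3% of them, against 26.5% and 22.6% of all windows. Here the S5 levels had served for the choice. With the cytosines listed in the other 4 libraries, the rule was met by 972, 729 and 1624 windows without S5 replicates 1, 2 and 3, and by 1526 and 2154 windows without S3 replicates 1 and 2. The number of falling windows therefore depends on the libraries used.

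CHG cytosines had not been used to choose the windows, although they come from the same reads and the same contrast, and so they are described without a test. CHG was measured in 153 of the 635 windows, with 2 or more CHG cytosines listed in all libraries and 10 or more reads per library. The mean CHG level in these windows was 65.1%, 63.0% and 67.5% in S5 replicates 1, 2 and 3, against 85.4% and 84.5% in S3 replicates 1 and 2. The mean difference was -19.7 percentage points, beside -2.34 over all 373399 windows with CHG measured. At S3 the falling windows were only moderately below the other windows in CHG, at 84.9% ± 0.656 (SD, n = 2) against 89.2% over all windows, and at S5 they were far below, at 65.2% ± 2.25 (SD, n = 3) against 86.9%. Mean CHG was lower at S5 in 145 of 153 windows (94.8%), beside 69.4% of all windows with CHG measured. All S5 libraries lay under both S3 libraries in 106 windows (69.3%), beside 22.0%. A fall of 20 percentage points or more with every S5 library below every S3 library was found in 65 windows (42.5%), beside 0.615% of all windows with CHG measured, and 0 falling windows met the opposite rule, beside 0.0262%. CHG differed by less than 5 percentage points in 29 windows (19.0%), beside 72.6% of all windows with CHG measured. Across the 153 windows the asymmetric and CHG differences had a Pearson r of 0.42 and a Spearman rho of 0.34, given as a description because both come from the same libraries and reads.

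CG cytosines changed less than CHG cytosines, but more than in other windows. CG was measured in 161 falling windows, at 87.2%, 85.6% and 88.1% in S5 replicates 1, 2 and 3 and at 92.3% and 91.9% in S3 replicates 1 and 2. The mean difference was -5.13 percentage points and the median -1.99, beside a mean of -0.08 over all 361841 windows with CG measured. CG differed by less than 5 percentage points in 105 windows (65.2%), beside 85.4% of all windows with CG measured. A fall of 20 percentage points or more with separate libraries was found in 19 windows (11.8%), beside 0.118% of all windows, and a rise of that kind in 0, beside 0.042%. Mean CG was lower at S5 in 109 windows (67.7%), beside 49.3%, and all S5 libraries lay under both S3 libraries in 44 (27.3%), beside 9.82%. In the 75 windows with both classes measured, the CHG difference was more negative than the CG difference in 66 (88.0%), beside 66.9% of the 227818 such windows among all. CHG was lower by 20 percentage points or more in 26 of these windows (34.7%, beside 0.522%). CG changed by less than 5 in 15 of the 26, beside 803 of the 1190 windows with such a CHG fall among all, so this was not particular to the falling windows. A fall of that size in both classes was found in 4 windows (5.33%, beside 0.0154%), and 16 had neither CHG nor CG changed by 5 or more (21.3%, beside 64.8%).

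**Figure D3:**
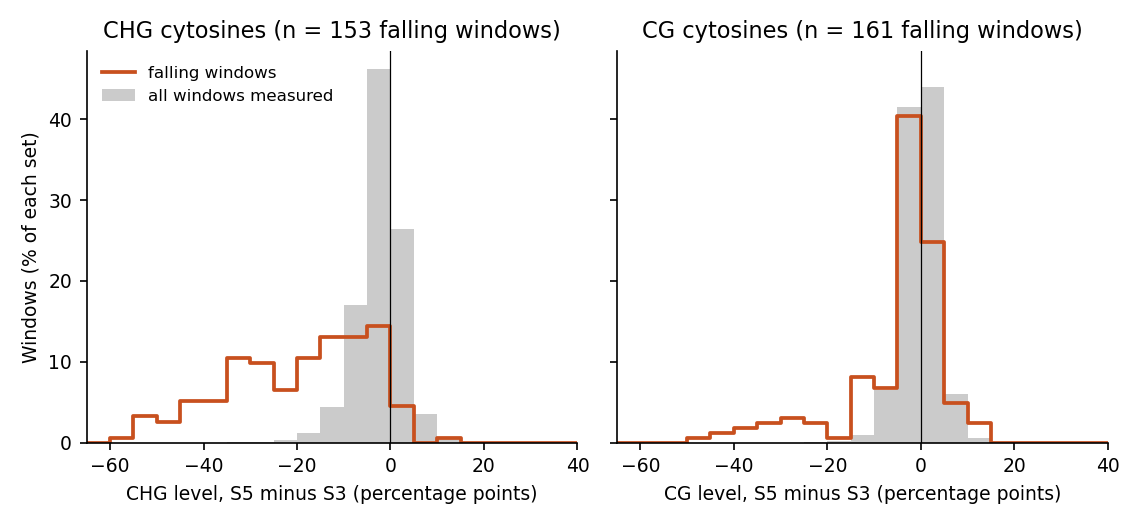
Distribution of the CHG (left) and CG (right) level difference, S5 minus S3 in percentage points, as a share of the falling windows (orange line; 153 for CHG, 161 for CG) and of all windows measured in that class (grey bars). The CHG distribution of the falling windows reaches down to -58.1 with a median of -17.0, whereas the CG distribution has a median of -1.99 with a tail of lower values.

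Fewer asymmetric cytosines were also called in these windows at S5. Calls depend on coverage too, and the windows were chosen for a lower level at S5, so the counts are given as a description. S5 replicates 1, 2 and 3 listed 6557, 6646 and 6180 asymmetric methylcytosines in the falling windows, against 7326 and 7901 in S3 replicates 1 and 2. All S5 libraries listed fewer than all S3 libraries, and this includes cytosines not listed in every library. Per falling window this was 10.3, 10.5 and 9.73 at S5 and 11.5 and 12.4 at S3. Over all windows measured it was 10.6, 9.04 and 10.4 per window at S5 and 9.22 and 9.51 at S3, so that the stages overlapped there. In the falling windows 341 asymmetric positions were listed in both S3 libraries and in no S5 library, and 62 in all S5 libraries and in no S3 library. Over all windows measured the order was the opposite, with 97838 and 182258 positions. The number of CHG cytosines listed in the falling windows overlapped between the stages (728 to 842 at S5, 795 and 838 at S3). Over all windows measured the stages did not overlap. There 2.741, 2.672 and 2.697 CHG cytosines were listed per window at S5 and 2.749 and 2.774 at S3. Of 961 CHG positions listed in the falling windows in any library, 594 were listed in all 5. Both S3 libraries and no S5 library listed 5 of them, and all S5 libraries and no S3 library listed 2. Over all windows measured these counts were 6920 and 4250, so more S3-only CHG positions were not particular to the falling windows. The number of CG cytosines listed in the falling windows also overlapped (703 to 811 at S5, 726 and 764 at S3).

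Around the falling windows the difference became smaller within 400 bp in all classes, but asymmetric and CHG differences stayed below those of all windows out to 2000 bp. In windows 100 bp away, which were not falling windows themselves, the mean asymmetric level was 47.3% at S5 and 54.5% at S3, a difference of -7.21 percentage points. It was -1.51 at 200 bp and 0.97 at 300 bp, and it lay between 0.14 and 2.43 from 300 bp to 2000 bp, under the mean of 4.0 over all windows with an asymmetric cytosine listed in all libraries. The CHG level was 68.8% at S5 and 81.5% at S3 at 100 bp, a difference of -12.8, and 76.7% at S5 and 83.5% at S3 at 400 bp, a difference of -6.83. From 400 bp to 2000 bp the CHG difference stayed between -8.10 and -5.67, beside -3.28 over all windows. The CG difference was -3.21 at 100 bp and between -1.13 and 0.74 from 400 bp outwards. These neighbouring windows were less strictly filtered, since 1 cytosine listed in all libraries was enough.

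**Figure D4:**
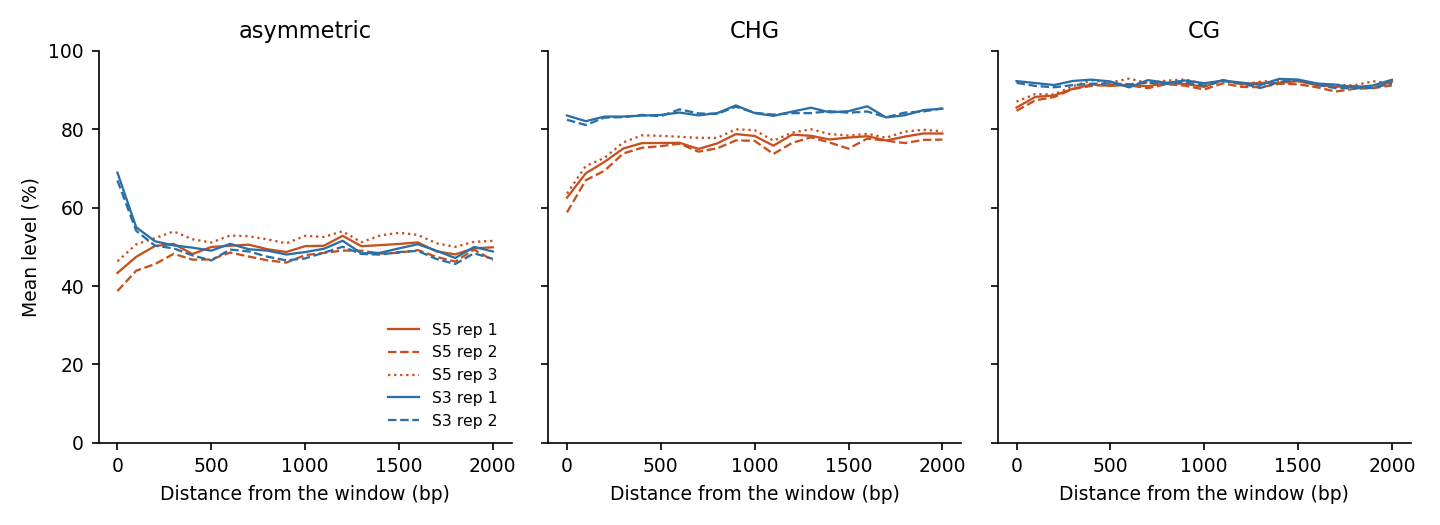
Mean level (%) of asymmetric, CHG and CG cytosines in 100 bp windows against the distance from a falling window (0 to 2000 bp, both sides together, other falling windows left out), for S5 replicates 1 to 3 (orange) and S3 replicates 1 and 2 (blue). The asymmetric lines of the stages meet at 200 to 300 bp, the CHG lines stay apart to 2000 bp, and the CG lines differ only near the window.

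Fewer methylcytosines were listed around falling windows than around other windows, and the density of cytosines, coverage and methylation cannot be told apart in this count. Within 1000 bp on either side, the union of the libraries listed a median of 130 asymmetric, 17 CHG and 24 CG cytosines around a falling window, against 197, 49 and 40 around all windows measured. Inside the window itself the median number of asymmetric positions was 16, against 14 over all windows. No CG and no CHG position was listed in any library in 241 falling windows (38.0%), against 13.8% of all windows. For this reason CHG and CG could be followed in 24.1% and 25.4% of the falling windows, and 396 of them (62.4%) had neither class measured, against 24.3% of all windows.

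The asymmetric cytosines of a falling window lay on 1 strand in 481 windows (75.7%, 266 forward and 215 reverse), against 38.3% of all windows. Listed cytosines of any class were present on both strands in every library in 246 falling windows (38.7%), against 75.8% of all windows. In 130 falling windows (20.5%) no cytosine at all was listed on 1 of the strands, against 5.08% of all windows. Their median S3 level was 77.6%. Where the opposite strand is not listed, a CG or CHG cytosine cannot be distinguished from a CHH cytosine, so that the asymmetric class may hold some of them there. Cytosines with an S3 level of 80% or more made up 20.1% of those in the 246 windows listed on both strands and 33.5% of those in the others. The median fall of either kind lies near the limit by the rule. In the 246 windows the median level was 39.2% at S5 and 65.3% at S3, with a median difference of -23.2 percentage points, and CHG, measured in 120 of them, had a median difference of -16.4. Asymmetric cytosines could be followed on each strand separately in 87 windows. These strand levels are parts of the level the rule used and are given as a description. Both strands were lower at S5 in 85 of these, with a median difference of -27.3 percentage points on the strand with the larger fall and -19.7 on the other, and both were lower by 20 or more in 41. Cytosines that can only be CHH, because 2 listed cytosines follow on the same strand, were too few to apply the rule: 182 windows held 3 or more of them and none of these met it, which allows a share of up to 1.65%.

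Coverage of the falling windows was below that of other windows in 4 of 5 libraries. The median coverage per asymmetric cytosine was 16.3, 16.2 and 13.8 reads in S5 replicates 1, 2 and 3 and 14.3 and 15.2 reads in S3 replicates 1 and 2. Relative to all windows measured this was 0.831, 1.13 and 0.719 times at S5 and 0.732 and 0.757 times at S3. The stages overlapped in this ratio (two-sided exact permutation p = 0.7, where the smallest possible p is 0.1). Relative to the windows measured within 5 kb, for 562 falling windows, the ratio was 0.942, 1.08 and 0.902 at S5 and 0.882 and 0.879 at S3. The stages did not overlap in this ratio, with a difference of 0.0945 (two-sided exact permutation p = 0.2), and with so few libraries no p under 0.05 was possible. The part of coverage in the fall was not tested. S5 replicate 2, the library with the lowest asymmetric level in these windows, was the only library in which they were covered better than other windows, and its part in the result was not tested. Without S5 replicate 2 the difference between the stages in the ratio to all windows measured was 0.0297, against 0.147 with it. The counting error of the difference had a median of 4.94 percentage points per falling window and 4.62 over all windows, and covers the sampling of reads only. Coverage over 3 times the library median, as in collapsed repeats, was found in 12 falling windows (1.89%), against 7.68% of all windows.

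Falling windows were found on all 8 chromosomes and on the unplaced scaffolds. Chromosome Ca4 held 83, Ca6 held 81, Ca1 held 76, Ca2 held 68, Ca7 held 65, Ca3 held 56, Ca5 held 54 and Ca8 held 29. Their share of the windows measured ranged from 0.102% on Ca5 to 0.258% on Ca8. The mirror image was also most frequent on Ca8, at 2.86% of its windows. On the scaffolds 123 falling windows were found on 94 sequences, 0.0436% of the windows measured there, and the mirror image was also least frequent there, at 0.767%. Along the chromosomes the share was highest, at 0.226%, in the first of 10 equal parts, lowest in part 6, at 0.0727%, and 0.144% in the last. Most falling windows had no other falling window next to them. The median distance to the next falling window on the chromosomes was 134700 bp. No falling window was adjacent in 554 cases, and 81 falling windows (12.8%) lay in 39 runs of 2 or 3. Within 1000 bp of another falling window lay 108 of them (17.0%). Adjacent windows were not all measured. Of the 345 adjacent measured windows that were not falling windows, 244 (70.7%) were lower at S5, against 20.9% of all windows. The median difference of the 345 windows was -4.89 percentage points. Genes, repeats and base sequence of the windows were not analysed here, because no annotation or genome of this version was used.

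The largest group held 7 falling windows within 2100 bp on Ca4 at 19782801 to 19784900, and is described here because of its number of windows, which was seen in the data. Over this interval 53 asymmetric cytosines had a level of 27.1%, 23.6% and 28.1% in S5 replicates 1, 2 and 3, against 52.1% and 51.7% in S3 replicates 1 and 2. Its 51 CHG cytosines had 45.3%, 44.2% and 46.3% in the S5 libraries, against 76.9% and 75.4% in the S3 libraries. The stages were far apart in both classes, by 25.7 and 30.9 percentage points. In the same interval 25 CG cytosines had 93.3% ± 2.22 at S5 (SD, n = 3) and 93.1% ± 0.847 at S3 (SD, n = 2), with overlapping libraries. Mean coverage was 18.7 to 25.9 reads per cytosine over the classes and libraries. A group of 4 falling windows lay on the same chromosome at 21077801 to 21079400. Its 29 CHG cytosines had 66.1% ± 2.10 at S5 (SD, n = 3) and 84.1% ± 0.293 at S3 (SD, n = 2), and its 12 CG cytosines had 92.7% ± 3.97 and 94.1% ± 2.40. In a group of 3 falling windows on Ca2 at 8479401 to 8479800, CG was lower as well. Its 5 CG cytosines had 35.6% ± 6.85 at S5 and 69.1% ± 0.79 at S3. The 7 CHG cytosines there had 24.7% ± 2.82 and 75.1% ± 3.06.

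**Figure D5:**
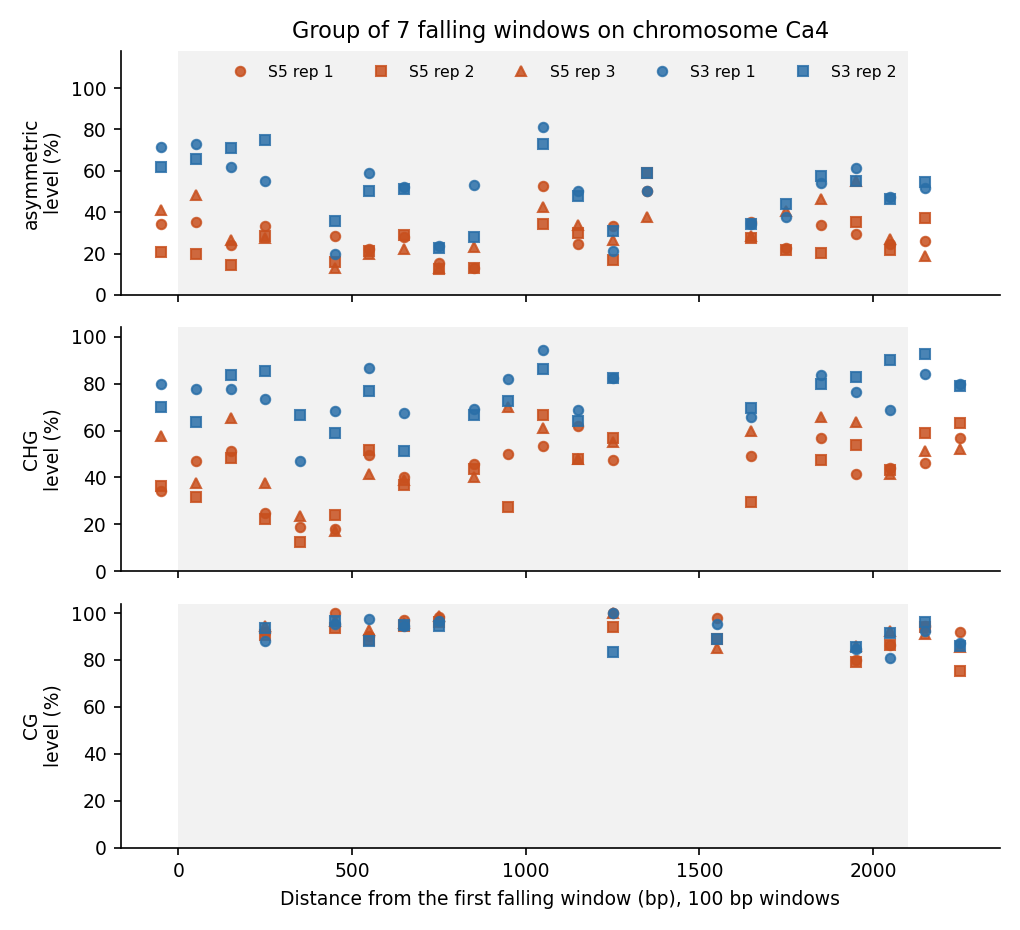
Levels (%) of asymmetric, CHG and CG cytosines in 100 bp windows across the group of 7 falling windows on Ca4 and in the windows with data within 500 bp on either side, against the distance from the first falling window (bp), for S5 replicates 1 to 3 (orange) and S3 replicates 1 and 2 (blue). The shaded part is the 2100 bp interval; most of its windows have lower asymmetric and CHG levels at S5 (26.2% and 45.3% over the interval at S5, 51.9% and 76.1% at S3), and CG levels overlap (93.3% at S5, 93.1% at S3).

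The longest runs of falling windows were 3 windows long. On Ca3 at 9961701 to 9962000, 25 asymmetric cytosines, all on the forward strand in the 3 windows, had 25.4%, 24.8% and 40.1% in S5 replicates 1, 2 and 3 and 66.5% and 73.0% in S3 replicates 1 and 2. Here the single CG cytosine listed in all libraries was lower too, at 42.4% ± 7.81 at S5 (SD, n = 3) and 97.6% ± 3.37 at S3 (SD, n = 2). The single CHG cytosine there had 40.3% ± 8.67 and 97.4% ± 3.72. CHG and CG in this run thus rest on 1 cytosine each. In its 3 windows the opposite strand was not listed in every library, so that the asymmetric context is uncertain. The run on Ca4 at 42086201 to 42086500 differed in CG. Its 14 asymmetric cytosines had 39.8% ± 0.817 at S5 and 66.1% ± 4.11 at S3. Its 2 CHG cytosines were lower at S5 too, at 75.7% ± 2.88 and 91.7% ± 4.31, without overlap of the libraries. Its 2 CG cytosines overlapped between the stages, at 88.9% ± 1.59 and 89.5% ± 5.39. The run on Ca1 at 47193401 to 47193700 belonged to a group of 4 windows, whose 34 asymmetric cytosines had 27.7% ± 4.10 at S5 and 47.8% ± 0.528 at S3.

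The largest single fall was found on scaffold363 at 39601 to 39700, where 7 cytosines had 40.5%, 24.0% and 40.2% in S5 replicates 1, 2 and 3 and 91.1% and 87.4% in S3 replicates 1 and 2. The next was the middle window of the Ca3 run, at 9961801 to 9961900, with a difference of -48.7 percentage points over 12 cytosines. On Ca2 at 32208201 to 32208300 the difference was -48.5 over 4 cytosines, on Ca7 at 38607701 to 38607800 it was -46.9 over 3, and on Ca3 at 3191901 to 3192000 it was -45.6 over 4. All 5 windows had S3 levels of 82.3 to 89.3%, their cytosines lay on 1 strand, and the opposite strand was not listed in every library, so that their context was the least certain. Neither CHG nor CG could be measured in any of them. Among the 14 windows with a difference of -40 or less, 5 were listed on both strands in every library.

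The median difference was -23.9 percentage points in the 53 windows with 11 or more cytosines and -22.8 with 6 to 10. It was -22.7 with 4 or 5 and -23.8 with 3. The limit of -20 holds these medians close together, so they cannot show whether the fall follows the number of cytosines. The highest number was 26, in 2 windows. Those on Ca6 at 28325201 to 28325300, on both strands, had 30.2%, 29.5% and 44.3% in S5 replicates 1, 2 and 3 and 63.7% and 65.7% in S3 replicates 1 and 2, at 17.7 to 46.1 reads per cytosine, and all 26 were lower at S5. The 2 CHG cytosines within it had 41.5% ± 6.25 at S5 (SD, n = 3) and 90.4% ± 3.15 at S3 (SD, n = 2). On Ca1 at 28910101 to 28910200, 26 cytosines had a difference of -21.4 percentage points. On Ca1 at 28943701 to 28943800, 25 cytosines had a difference of -22.2, and CHG there differed by -10.7. On Ca6 at 3170901 to 3171000 and on Ca1 at 41695101 to 41695200, 23 cytosines each had differences of -21.8 and -20.5, and CHG in the last of these differed by -27.5. These 5 windows were listed on both strands in every library, and 122 of their 123 cytosines were lower at S5.

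The largest CHG falls were found on Ca2 at 8479401 to 8479500, on scaffold4387 at 4301 to 4400 and on Ca3 at 9933201 to 9933300. In the Ca2 window 4 CHG cytosines had 24.6%, 21.2% and 30% in S5 replicates 1, 2 and 3 and 85.7% and 81.1% in S3 replicates 1 and 2, and 21 asymmetric cytosines had a difference of -35.3 percentage points. In the scaffold4387 window the CHG difference was -54.6 over 2 cytosines, with an asymmetric difference of -36.0. In the Ca3 window CHG had 46.6% ± 9.08 at S5 (SD, n = 3) and 100% in both S3 libraries over 2 cytosines, whereas its 4 CG cytosines differed by -7.12. The largest CG falls lay on Ca6 at 39223601 to 39223700 (-46.1), on Ca6 at 16058401 to 16058500 (-44.5) and on Ca2 at 34768901 to 34769000 (-40.5), each over 2 CG cytosines. In the last of these, S5 replicate 3 had 70.8% and S3 replicate 1 had 75%, so that the stages came close. The largest CHG rise was 10.1 percentage points, on Ca2 at 27064901 to 27065000, and its libraries overlapped. The largest CG rise was 11.1 percentage points, on Ca7 at 1867801 to 1867900, where the libraries overlapped as well.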

How the data were processed

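Whole genome bisulphite sequencing data of 5 Himchana 1 seed libraries (S5, n = 3; S3, n = 2) were used, grouped by the sample titles. The authors filtered reads in NGS QC Toolkit (v2.3), aligned them in Bismark (v0.14.3) to the kabuli genome (v1), kept unique alignments and listed cytosines that had 5 or more reads and passed a binomial test at 0.0001. The deposited files, in methylKit (v0.9.2) layout, give each cytosine a count of reads and the percent of them that show C. Unlisted cytosines were either poorly covered or not called, so that the largest losses are missing. Methylated reads were rounded from percent and count, and 426 to 756 lines per library at repeated positions were left out.

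Context was inferred from listed opposite-strand cytosines (25417371 asymmetric, 6803123 CHG and 8384616 CG positions). Levels were methylated reads over all reads. Code (Python 3.11.15, numpy 2.4.6, pandas 2.3.3) was tested on simulated data. Only relative coverage was tested, by a two-sided exact permutation test. The windows and tests were chosen with earlier results of these data known. Named windows were those with the 5 largest falls, the 5 highest numbers of cytosines, the longest runs, the 3 largest CHG and CG falls and the largest rise in each, and those at the limit. The choice on 4 libraries was added after seeing the data. Alternatives changed limits, filters, windows, depth, strands and libraries.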

Additional observations from a re-analysis of the deposited data

How the results depend on the processing

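Windows were chosen anew for a fall under each alternative, so that the direction of the asymmetric difference was fixed. The mean CHG and CG differences stayed negative wherever falling windows were found. The 635 windows became 236 with a limit of -25 percentage points, 1921 with -15, 323 with 5 or more cytosines, 262 with 60 or more reads and 0 with cytosines that can only be CHH, where few windows were measured. Requiring both strands in every library, an alternative chosen after seeing the data, left 246. Leaving out 1 library gave 729 to 2154. The median asymmetric difference of -23.3 was -29.4 and -17.9 at the limits of -25 and -15, and -23.3 to -23.0 without 1 library. The mean CHG difference of -19.7 was -28.3 and -12.3 at these limits, -23.7 with 5 or more cytosines, -25.7 with 60 or more reads, -16.7 with reads thinned to the shallowest library, -15.8 with 1 strand at a time and -16.9 to -11.3 without 1 library. The mean CG difference of -5.13 was in the same order -6.92, -2.60, -6.20, -7.76, -3.87, -3.55 and -3.86 to -2.24, and it was -3.77 with unweighted levels and -3.69 with both strands listed. The share of windows on 1 strand, 75.7%, was 66.2% at -15, 69.3% with 5 or more cytosines, 68.3% with 60 or more reads, 89.5% with 10 or more reads per cytosine, 69.0% with thinned reads, 37.4% with both strands listed and 62.6 to 76.1% without 1 library. With the replicate number as a block, which leaves out S5 replicate 3, 1651 windows were found, with -16.2 for CHG, -3.88 for CG and 62.7% on 1 strand, but same-numbered samples shared only a number (correlations of deviations 0.0094 and 0.0281). Relative coverage had the same sign throughout, at 0.0297 to 0.234 without 1 library. CHH called from a genome was not run. The depth per window, a median of 53 reads in the shallowest library, limits single windows more than their mean.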
